A study of Homo sapiens with 3 samples.

Results

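The mitochondrial ribosomal proteins are the nuclear-encoded proteins of the ribosome that works inside mitochondria. They were taken by symbol, as every gene named MRPL or MRPS followed by a number, with MRPL45 and MRPS17 left out. The rule gave 74 of the 11772 genes tested, of which 49 code for proteins of the large subunit and 25 for proteins of the small subunit. The symbols of MRPS30 and MRPS18A carry an S, but their proteins sit in the large subunit and were counted there. The 74 genes lie on 21 chromosomes and had 107 probes, and the brightest probe of each gene was used. All 74 exceeded background on all 3 arrays.

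Illumina HumanHT-12 v3 arrays compared 2 resistant lines with the parental line they came from. The resistant lines, HCC827-BR1 (clone 1) and HCC827-BR2 (clone 2), are single clones of HCC827 kept for 3 to 4 months in rising BIBW2992 up to 2 µM. BIBW2992, or afatinib, is an irreversible inhibitor of the EGFR family of receptor kinases. The parental line, HCC827, is an EGFR-mutant lung adenocarcinoma line labelled as sensitive to the drug. Each line has 1 array, the labels do not give the drug in the medium at harvest, and no unselected clone was analysed here. Selection, cloning, time in culture and drug still present cannot be told apart. Dasatinib stands in the series title, but none of the 3 arrays carries it in a label.

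Mitochondria keep a small genome whose protein-coding genes all encode subunits of the respiratory chain and ATP synthase. Their messenger RNAs are translated by a dedicated ribosome, the mitoribosome, whose RNA comes from the mitochondrial genome and whose proteins are all made in the cytosol and imported. Part of these proteins descend from bacterial ribosomal proteins, and the rest are specific to mitochondria. Transcription of many such nuclear genes is driven by the factors NRF1 and NRF-2 (an ETS-family complex of GABPA and GABPB) and by coactivators of the PGC-1 family.

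Promoters that hold these factors' core motifs are shown first, because they come from members on both sides of the parental signal. A RefSeq promoter of 300 bases (250 before the start and 50 after it, build GRCh38.p14) was matched to 66 of the 74 members. The ETS core CCGGAAG, read on both strands, was in 28 of the 66 (42.4%), against 18.8% of 9500 promoters of genes tested and 14.2% of 15842 protein-coding promoters. The NRF1 core GCATGCGC, read on both strands, was in 6 of the 66 (9.09%), against 5.45% and 4.28%. Both cores were in 2 member promoters and neither in 34 (51.5%), against neither in 77.1% of the promoters of genes tested. Neither core contains the other. The windows below are 60 bases of sequence before the start, 5′ to 3′ on the gene's strand, with the core in capitals as it reads on that strand. The first 4 are members among the highest in the clones, the next 2 are members below parental in both clones, and the last 3 hold the NRF1 core.
MRPL43: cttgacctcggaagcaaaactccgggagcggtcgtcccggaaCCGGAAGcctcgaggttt
MRPL54: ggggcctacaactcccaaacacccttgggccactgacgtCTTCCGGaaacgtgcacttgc
MRPS31: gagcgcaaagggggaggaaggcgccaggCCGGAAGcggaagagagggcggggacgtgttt
MRPS34: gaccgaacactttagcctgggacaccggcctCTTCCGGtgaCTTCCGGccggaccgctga
MRPS10: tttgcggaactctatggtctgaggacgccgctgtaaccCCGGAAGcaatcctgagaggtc
MRPL53: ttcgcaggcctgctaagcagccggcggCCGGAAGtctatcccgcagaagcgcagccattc
MRPL52: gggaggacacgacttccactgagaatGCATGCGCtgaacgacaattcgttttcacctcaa
MRPL17: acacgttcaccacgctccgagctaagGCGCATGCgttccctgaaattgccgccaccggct
MRPL32: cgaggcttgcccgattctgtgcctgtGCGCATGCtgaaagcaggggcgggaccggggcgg

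These windows lie at chr10:100987498-100987557 on the minus strand for MRPL43, chr19:3762622-3762681 on the plus strand for MRPL54, chr13:40771191-40771250 on the minus strand for MRPS31 and chr16:1773135-1773194 on the minus strand for MRPS34. Those of the next pair lie at chr6:42217862-42217921 on the minus strand for MRPS10 and chr2:74472720-74472779 on the minus strand for MRPL53. The NRF1-core windows lie at chr14:22829686-22829745 on the plus strand for MRPL52, chr11:6683350-6683409 on the minus strand for MRPL17 and chr7:42932311-42932370 on the plus strand for MRPL32. MRPS34 holds the ETS core at 2 places in its window. The 28 members with the ETS core had a median log2 difference of 0.19 between the resistant clones and the parental line, and the 38 members without it had 0.11. Members with the core ranged from -0.90 for MRPS33 to 1.03 for MRPL43, and those without it from -0.69 for MRPS15 to 1.20 for MRPL1. The 2 ranges overlapped over most of their length. With the NRF1 core the median was 0.13 (6 members), and without it also 0.13 (60 members). A match describes the letters in the window and was not tested as a binding site.

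With MRPL45 and MRPS17 left out, the mitoribosomal genes as a whole stayed close to their parental signal in the resistant clones. No member passed the test. All differences are log2, each clone or the mean of the clones minus the parental line, on background-corrected, quantile-normalized signal. In limma's fit over all 11772 genes, with Benjamini-Hochberg adjustment and a threshold of 0.05, 0 members rose and 0 fell, against 2.70% and 3.12% of all genes tested (5.82% in either direction). Among genes above background on all 3 arrays, 3.95% were called. At an unadjusted p under 0.05, 2 members were higher (MRPL43 and MRPL54) and 2 lower (MRPS33 and MRPS15), against 10.1% and 10.6% of all genes, 20.7% in either direction. The smallest adjusted p of any member was 0.115, for MRPL43. This fit has 1 residual degree of freedom and takes its spread from the 2 clones, so the p-values do not cover the spread between parental cultures. The smallest difference called for any gene was 2.61-fold, and the median standard error of a member's difference was 0.27. The 95% interval of the difference included 0 in 70 members and lay within 2-fold on both sides in 37. The other 37 intervals reached past 2-fold, so that a 2-fold difference was within the error there.

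Counted by size, 58 of 74 members (78.4%) were within 1.5-fold of parental in both clones, against 57.4% of all genes tested and 60.3% of genes above background on all arrays. Both clones were at least 1.5-fold above parental in 5 members (MRPL1, MRPL43, MRPL54, MRPL46 and MRPS31), 6.76% against 10.5% of all genes. Both were at least 1.5-fold below it in 2 members (MRPS15 and MRPS33), 2.70% against 11.3%. At 2-fold in both clones the counts were 0 and 0, against 4.73% and 5.33% of all genes. MRPL45, which is not counted among the members, was 7.98-fold above parental in clone 1 and 9.64-fold in clone 2. It was called higher by limma in the same fit. The shares and the spread over all genes include it, while those of the members do not. In clone 1, taken alone, 9 members were at least 1.5-fold higher and 3 lower, against 15.5% and 15.8%: MRPL2, MRPL28, MRPL34 and MRPL38 joined the 5 above, and MRPS9 the 2 below. In clone 2, taken alone, the counts were 9 and 2, against 16.2% and 17.1%, and here MRPS34, MRPS35, MRPL47 and MRPL52 joined the 5 above. The standard deviation of the members' mean differences was 0.38, against 0.90 over all genes tested and 0.74 over genes above background on all arrays.

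Small as the differences were, more of them lay above zero than below. Both clones were above the parental array in 42 members (56.8%) and below it in 17 (23.0%), and the parental array lay between the clones in 15 (20.3%). The shares over all genes tested were 40.0%, 38.2% and 21.8%. The median member difference was 0.098 in clone 1 and 0.20 in clone 2, against 0.012 and 0.010 for all genes. With arrays scaled to 1 median in place of quantile normalization, the median of all genes moved by -0.091 and the split became 31 above and 23 below. All genes then split into 33.7% above and 45.2% below. The members' median of the mean difference exceeded that of all genes by 0.12 under both scalings. Both clones share the 1 parental array, so its error enters every difference in the same direction. The plot of each member's difference by clone shows this spread.

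**Figure D1:**
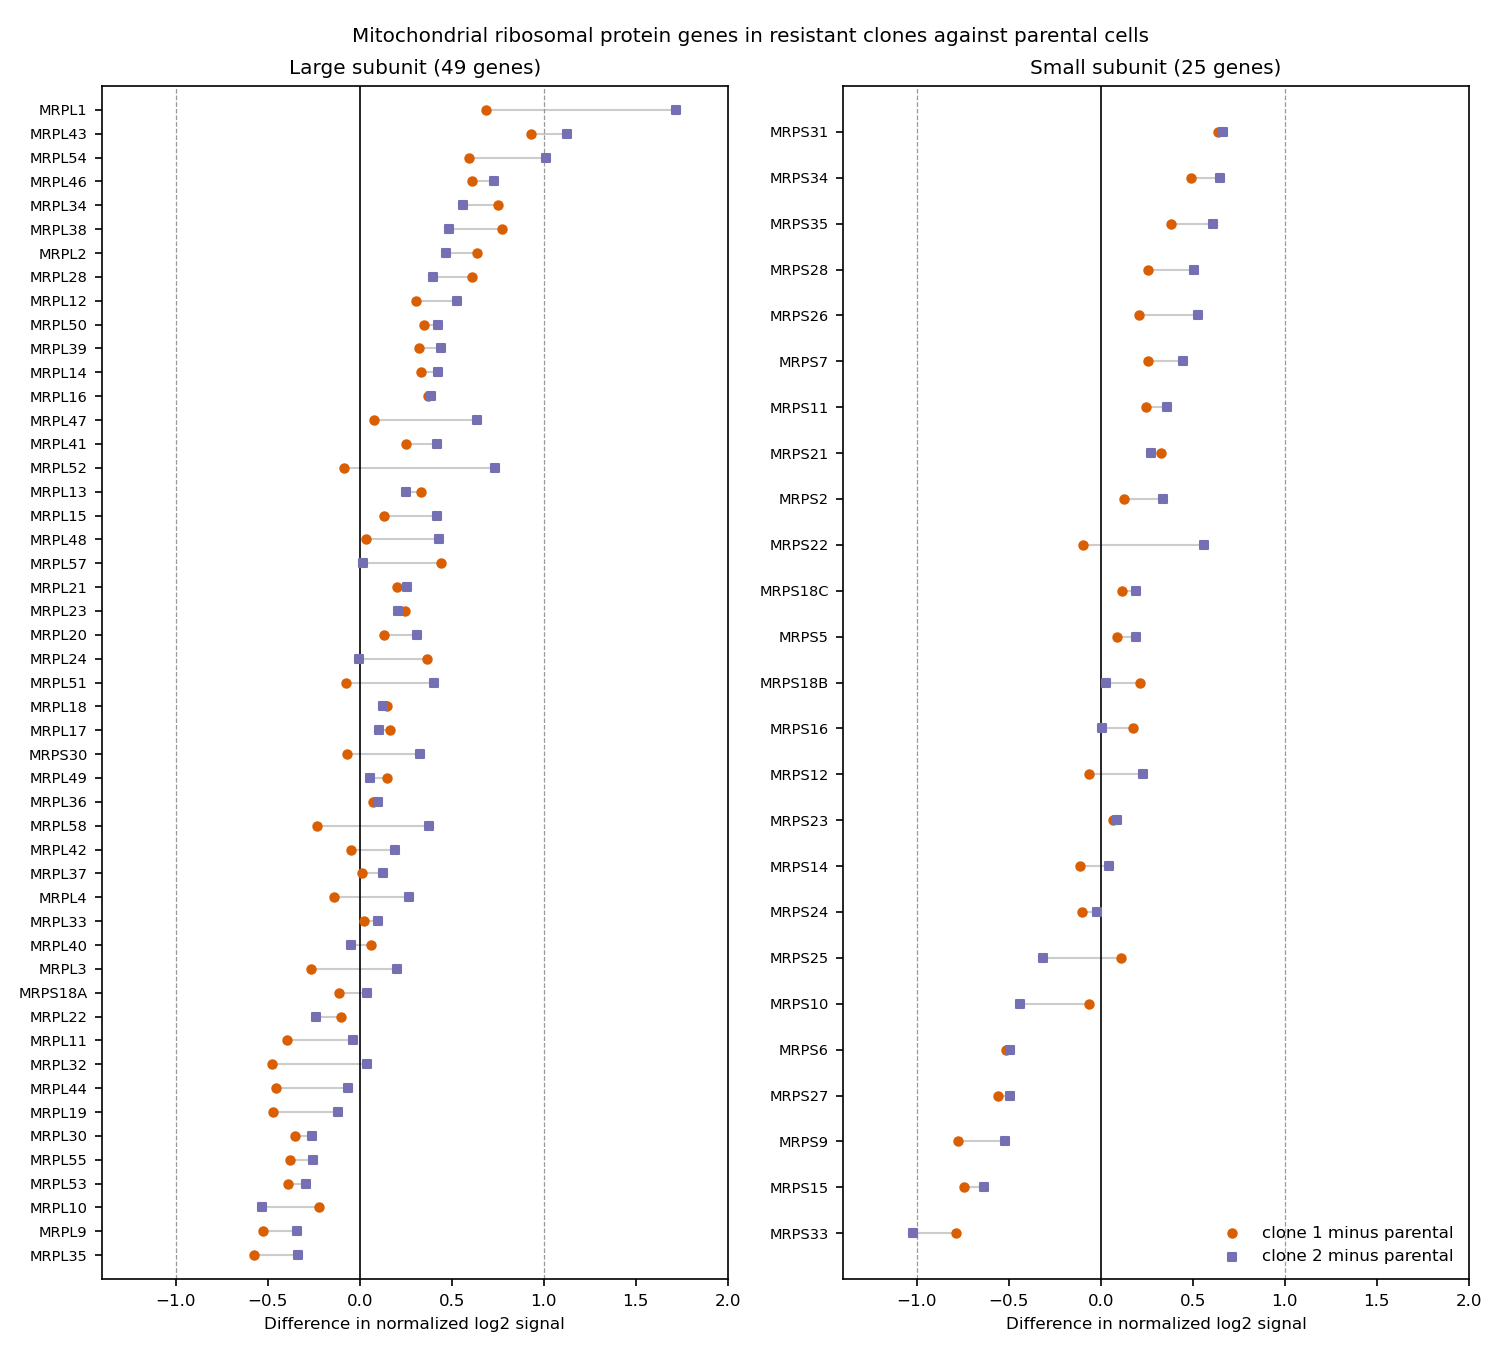
Log2 difference of each clone from the parental line (horizontal axis, normalized log2 signal) for the 49 large-subunit genes (left) and the 25 small-subunit genes (right), ordered by the mean of the clones; dashed lines mark 2-fold. Circles are clone 1 and squares clone 2, with 1 array each; 58 of the 74 genes lie within 1.5-fold in both clones, and MRPL1 in clone 2 lies farthest out at 1.72.

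The highest member was MRPL1, the protein of the flexible L1 stalk where spent transfer RNA leaves the ribosome. Its log2 signal was 8.53 in clone 1 and 9.56 in clone 2, against 7.84 in the parental line. Both clones were above parental, clone 1 by 1.61-fold and clone 2 by 3.29-fold. The mean difference was 1.20 with a standard error of 0.47 (limma adjusted p = 0.243), so that the gap between the clones, 1.03, was almost as large as the mean itself. MRPL43, a mitochondria-specific protein of the large subunit, had 10.23 and 10.43 in clone 1 and clone 2, against 9.30 in the parental line. Here the clones lay close together, and the mean difference of 1.03 had a standard error of 0.27 (limma adjusted p = 0.115, unadjusted p = 0.0119). Its other probes did not share that size: a dimmer probe gave 0.67, and the dimmest gave -0.17. With the mean of its probes in place of the brightest, MRPL43 stood at 0.51.

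MRPL54, also specific to mitochondria and of the large subunit, had 9.15 and 9.56 in the clones and 8.55 in the parental line. Its mean difference was 0.80 ± 0.30 (SE; limma adjusted p = 0.227). MRPL46, a component of the central protuberance, had 9.54 and 9.66 in the clones, against 8.94 in the parental line, a mean difference of 0.67. For both genes the 2 clones lay above the parental array by more than they lay apart. MRPL34, a relative of bacterial L34, had 9.59 and 9.40 in the clones and 8.84 in the parental line. MRPS31, a mitochondria-specific protein of the small subunit head, had 10.45 and 10.47 in the clones, against 9.81 in the parental line. The clones were nearly level with each other for MRPS31, with mean differences of 0.66 for MRPL34 and 0.65 for MRPS31.

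The rest of the 10 highest lay between 0.50 and 0.63. MRPL38, a central protuberance protein, had 9.30 and 9.01 in the clones, against 8.53 in the parental line. MRPS34, a mitochondria-specific small-subunit protein, had 6.62 and 6.78 in the clones, against 6.14 in the parental line. These differences averaged 0.63 for MRPL38 and 0.57 for MRPS34, and in both the parental array was the lowest of the 3. MRPL2, which lies at the peptidyl transferase centre where peptide bonds are formed, had 9.12 and 8.95 in the clones and 8.48 in the parental line. MRPL28, a relative of bacterial L28, had 8.06 and 7.84 in the clones and 7.45 in the parental line. Clone 1 was the higher clone for both, with mean differences of 0.55 for MRPL2 and 0.50 for MRPL28. The limma adjusted p of these 10 members ran from 0.115 to 0.375.

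The lowest member was MRPS33, a mitochondria-specific protein of the small subunit. Its log2 signal was 10.42 in clone 1 and 10.19 in clone 2, against 11.21 in the parental line. The clones were 1.72-fold and 2.03-fold below parental, and the mean difference of -0.90 had a standard error of 0.27 (limma adjusted p = 0.156, unadjusted p = 0.0208). A dimmer probe of MRPS33 gave -0.15. MRPS15, the relative of bacterial S15, which binds the ribosomal RNA of the small subunit, had 10.73 and 10.84 in the clones, against 11.47 in the parental line. Its mean difference was -0.69 ± 0.26 (SE; limma adjusted p = 0.230), and the clones differed from each other by 0.11. MRPS9, the relative of bacterial S9 in the head, had 10.06 and 10.31 in the clones, against 10.84 in the parental line, a mean difference of -0.65. The parental array was the highest of the 3 for all of these genes.

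MRPS27, a pentatricopeptide-repeat protein of the small subunit, had 10.48 and 10.54 in the clones, against 11.04 in the parental line. A second, nearly as bright probe of MRPS27 gave -0.32 beside the -0.53 of the brightest. MRPS6, the relative of bacterial S6, had 11.58 and 11.60 in the clones, against 12.10 in the parental line. The clones were within 0.02 of each other for MRPS6 and 0.50 below parental in the mean. So the 5 lowest members were all of the small subunit, while 8 of the 10 highest were of the large one; no test was made of that split, and 49 of the 74 members are of the large subunit. The next 5 were all of the large subunit: MRPL35 at -0.45, MRPL9 at -0.44, MRPL10 at -0.37, MRPL53 at -0.34 and MRPL55 at -0.32. Dimmer probes of MRPL55 averaged -0.13 and 0.060, and a dimmer probe of MRPL10 averaged -0.16. The limma adjusted p of the 10 lowest ran from 0.156 to 0.564.

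**Figure D2:**
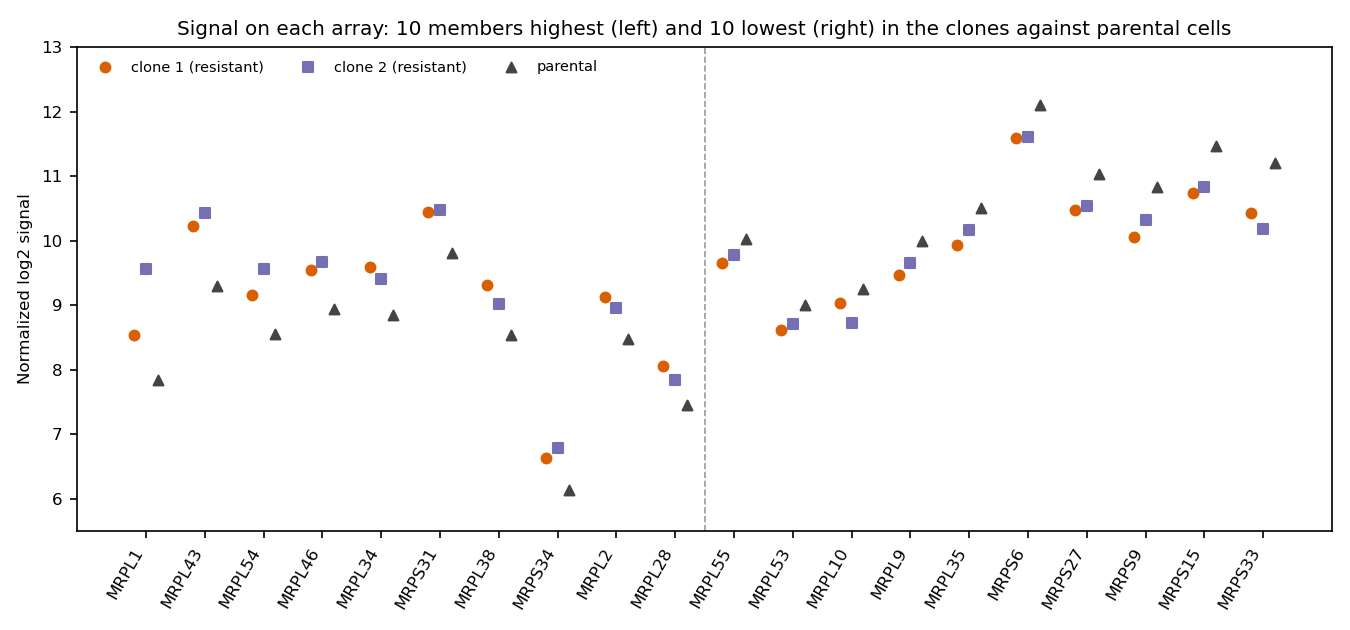
Normalized log2 signal (vertical axis) on each array for the 10 members highest (left of the dashed line) and the 10 lowest (right) by the mean difference of the clones from the parental line; signals of different genes come from different probes and are not comparable. Each mark is 1 array, clone 1, clone 2 and parental in that order; the parental mark lies below both clones for all 10 on the left and above both for all 10 on the right, by the way they were ranked.

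By role, the bacterial relatives and the mitochondria-specific proteins had overlapping values. Among the 29 large-subunit bacterial relatives both clones were above parental in 17 and below in 8, with a median of 0.14. Among the 20 large-subunit proteins specific to mitochondria the counts were 11 and 2, with a median of 0.20. The 15 small-subunit bacterial relatives had 8 above and 5 below (median 0.093), and the 10 mitochondria-specific ones had 6 above and 2 below (median 0.18). Pooled by subunit, the large subunit had 28 above and 10 below with a median of 0.16, and the small subunit 14 above and 7 below with a median of 0.12. The standard deviation of the mean differences was 0.36 in the large and 0.41 in the small subunit, and the difference between the medians was not tested. The background for these counts is the 40.0% above and 38.2% below of all genes.

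The working parts of the mitoribosome were each covered by a few genes. At the stalk base that recruits translation factors, MRPL12, the relative of the bacterial L7/L12 protein, averaged 0.42, its anchor MRPL10 averaged -0.37 and MRPL11 averaged -0.22. Clone signals of MRPL12 were 9.06 and 9.28, against 8.75 in the parental line, and those of MRPL10 were 9.02 and 8.72, against 9.25. The 2 partners therefore stood on opposite sides of parental in both clones. At the peptidyl transferase centre MRPL16 averaged 0.38, close to MRPL2, and MRPL3 averaged -0.03; MRPL27, also of that site, was not analysed here. Around the exit tunnel MRPL39, MRPL47, MRPL23 and MRPL24 averaged 0.38, 0.36, 0.23 and 0.18, and MRPL22 and MRPL44 averaged -0.17 and -0.26. MRPL45 (mean difference 3.13) and MRPS17, left out by the rule, were not counted at any site. A second, nearly as bright probe of MRPL47 gave -0.44 in clone 1 and 0.27 in clone 2, a mean of -0.086. In clone 2, though not in clone 1, the 3 genes of the peptidyl transferase centre were all above parental.

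In the central protuberance, which bridges the subunits, MRPL46 (0.67) and MRPL38 (0.63) stood highest. MRPL48, MRPL18, MRPL58 and MRPL40 lay between 0.0073 and 0.23. MRPL55 was at -0.32 by its brightest probe, and its dimmer probes lay nearer to parental. In the small subunit head MRPS31 averaged 0.65, MRPS7 0.35, MRPS14 -0.04, MRPS24 -0.06, MRPS10 -0.25 and MRPS9 -0.65, so that proteins of 1 structural domain spanned nearly the whole range of the small subunit. In the list for the decoding region MRPS11, MRPS5 and MRPS12 averaged 0.30, 0.14 and 0.083. All were above parental in clone 2. In clone 1 MRPS11 and MRPS5 were above it and MRPS12 was at -0.065. Of the 3 paralogues of bacterial S18, MRPS18B and MRPS18C belong to the small subunit and MRPS18A to the large one, and their mean differences were 0.15 for MRPS18C, 0.12 for MRPS18B and -0.04 for MRPS18A. The farthest of them from parental in any clone was MRPS18B in clone 1, at 0.21.

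At the bright end of the measured range, MRPL3 had 12.55 and 13.02 in the clones, against 12.82 in the parental line, which fell between them. MRPL37 had 12.18 and 12.30 in the clones and 12.17 in the parental line. MRPL51 averaged 0.16 and MRPS28, the relative of bacterial S1, 0.38. Among the dimmest probes, MRPS14 had 6.67 and 6.83 in the clones and 6.79 in the parental line, and MRPL57 had 7.27 and 6.84, against 6.82. MRPS34, at 0.57 among the 10 highest members, and MRPS25, at -0.10, complete the dim end.

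Outside the highest and lowest members, the sites, the S18 paralogues, the bright and dim ends and the widest gaps between clones there were 23 members, 17 of the large and 6 of the small subunit. They averaged between -0.31 (MRPL30) and 0.49 (MRPS35), with limma adjusted p from 0.386 to 0.935. Both clones were above parental in 17 of them and below in 2, MRPL30 and MRPL19, and the parental array lay between the clones in 4. MRPS35, a mitochondria-specific small-subunit protein, lay 0.38 above parental in clone 1 and 0.61 above it in clone 2. MRPL41, MRPL50 and MRPS26, all specific to mitochondria, averaged 0.34, 0.39 and 0.37. MRPL33, MRPL36 and MRPS23 lay at most 0.10 above parental in each clone. MRPL32, a relative of bacterial L32, had the widest gap between clones among these 23, 0.52, with 10.47 in clone 1 and 10.99 in clone 2, against 10.95 in the parental line. Clone 2 was level with parental there and clone 1 below it.

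Between the clones, clone 2 was more often the higher one. It was above clone 1 in 54 of 74 members (73.0%), against 49.5% of all genes tested, and the median of clone 2 minus clone 1 was 0.11, against -0.0035 for all genes. At least 1.5-fold higher in clone 2 were 4 members, MRPL1, MRPL52, MRPS22 and MRPL58 (background 6.96%), and 0 were at least 1.5-fold lower (background 7.95%). With 1 array of each clone these differences have no replicate and were not tested. Clone and array cannot be told apart.

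MRPL52, a mitochondria-specific large-subunit protein, had 9.06 in clone 1 and 9.88 in clone 2, against 9.14 in the parental line. Clone 1 was level with parental and clone 2 stood 1.77-fold above clone 1. MRPS22, a mitochondria-specific small-subunit protein, had 10.40 in clone 1 and 11.06 in clone 2, against 10.50 in the parental line. MRPL58, a peptidyl-tRNA hydrolase built into the large subunit, had 8.12 in clone 1 and 8.73 in clone 2, against 8.35 in the parental line. In both, clone 2 was the highest array and clone 1 the lowest. In the other direction the largest gaps were smaller: clone 2 minus clone 1 was -0.42 for MRPL57 and MRPS25 and -0.37 for MRPL24 and MRPS10. MRPS25 lay 0.11 above parental in clone 1 and at -0.31 in clone 2, so that clone 1 was the one near parental. For MRPS10, at 10.61 in clone 1 and 10.24 in clone 2 against 10.68 in the parental line, it was again clone 1 that lay near parental.

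Several members stood beside genes that differed in the same way. For each member the 5 nearest genes tested on each side were taken in RefSeq order. Across the 74 members, the mean difference of a member and the median of its neighbours had a Pearson r of 0.23 and a Spearman rho of 0.25, and clone 2 minus clone 1 had an r of 0.33. These describe 74 points measured on the same 3 arrays. MRPL52 on chromosome 14 stood at 0.82 between the clones beside a neighbour median of 0.89, and MRPL3 on chromosome 3 at 0.47 beside 0.41. MRPL35 on chromosome 2 averaged -0.45 beside neighbours at -0.51, and 10 of its 10 neighbours were below parental in both clones. Dimmer probes of MRPL35 averaged -0.087 and -0.17, farther from its neighbours. For MRPS33 on chromosome 7 the neighbour median was -0.48, with 0 of 10 above parental in both clones.

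Other members differed from their surroundings. MRPL1 on chromosome 4 averaged 1.20 beside a neighbour median of -0.32. MRPS5 on chromosome 2 averaged 0.14, and 9 of its 10 neighbours were below parental in both clones. MRPS28 on chromosome 8 averaged 0.38 beside a neighbour median of 1.21. MRPL43 on chromosome 10 averaged 1.03 beside 0.23, and 8 of its 10 neighbours were above parental in both clones; TWNK, the mitochondrial DNA helicase, is among them. Of the 2 genes left out by the rule, MRPL45 averaged 3.13, and MRPS17 stood at -0.26 in clone 1 and -2.05 in clone 2.

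**Figure D3:**
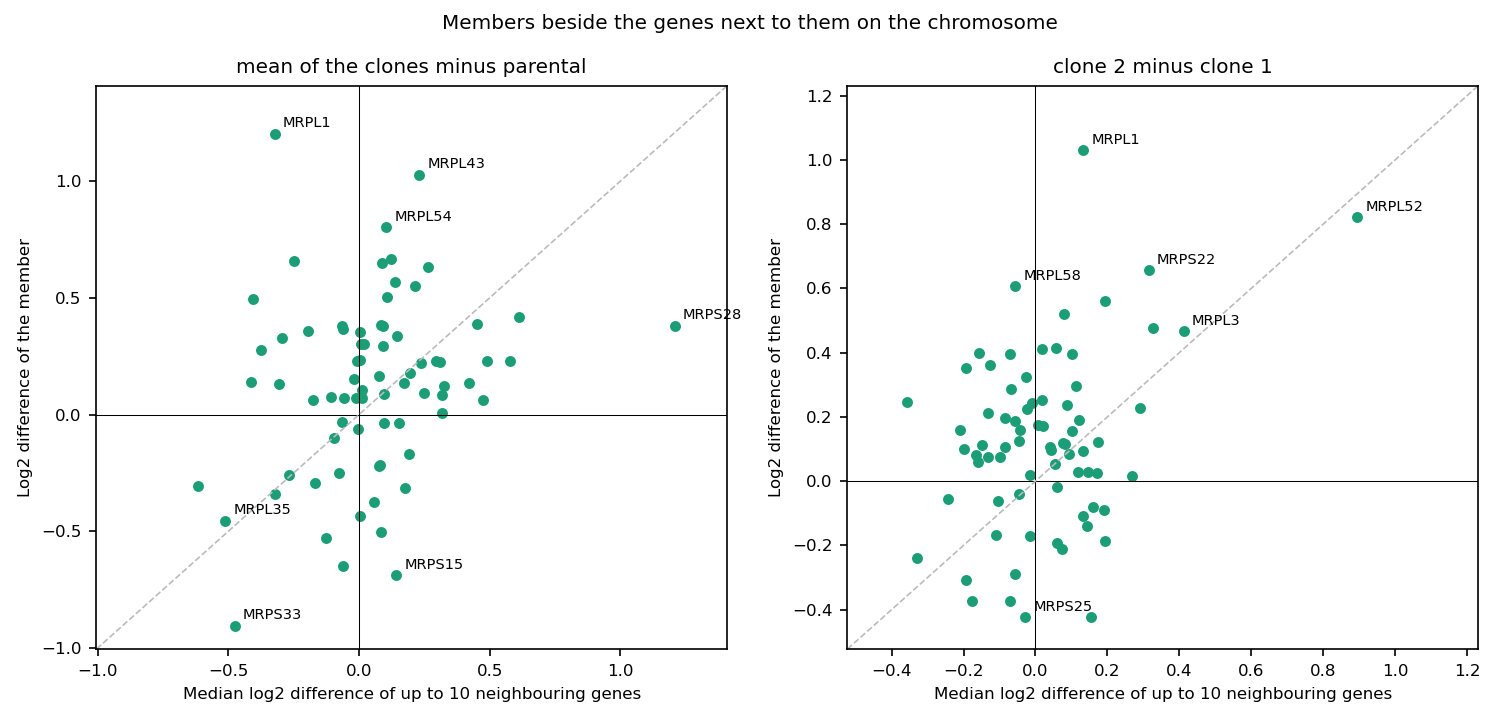
Log2 difference of each member (vertical axis) against the median log2 difference of up to 10 genes next to it on the chromosome (horizontal axis), for the mean of the clones minus the parental line (left) and clone 2 minus clone 1 (right). Each point is 1 of the 74 members and the dashed line marks equal values; MRPL52 lies near that line at 0.82 beside 0.89, and MRPL1 far above it at 1.20 beside -0.32.

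Where a gene had more than 1 probe, the probes mostly lay on the same side of parental. Of 26 such members, 25 had a further probe above background, 29 probes in all, and 22 of the 29 had the sign of the brightest probe. The median gap to the brightest probe was 0.19. The widest gap was the 1.20 of MRPL43. MRPS33 and MRPL57 followed with gaps of 0.75 and -0.73, and MRPL30 with -0.72: its second probe stood at -1.03, where the brightest stood at -0.31. So a pair of the members farthest from parental, MRPL43 and MRPS33, were also among those whose probes differed most. Probes of 1 gene may read different transcripts, and their targets were not analysed here.

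Set beside related families, the mitoribosomal genes lay on the upper side of parental, while the cytosolic ribosomal proteins lay on the lower. Of 75 cytosolic ribosomal protein genes both clones were above parental in 14 and below in 43, with medians of -0.18 in clone 1 and -0.096 in clone 2. Of 69 nuclear oxidative phosphorylation subunits the counts were 39 and 18, with medians of 0.17 and 0.070. The shares over all genes tested were 40.0% above and 38.2% below. In neither family was a gene called by limma (0 of 75 and 0 of 69), against 5.82% of all genes. At an unadjusted p under 0.05 there were 2 higher and 3 lower cytosolic genes, and 2 higher and 1 lower oxidative phosphorylation genes. All genes had 10.1% higher and 10.6% lower by that rule. Clone 2 was above clone 1 in 54 mitoribosomal, 56 cytosolic ribosomal and 22 oxidative phosphorylation genes. These are 73.0%, 74.7% and 31.9%, against 49.5% of all genes, so that both kinds of ribosomal gene leaned to clone 2. The differences between families were not tested, and none of these counts is called particular to the mitoribosome.

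**Figure D4:**
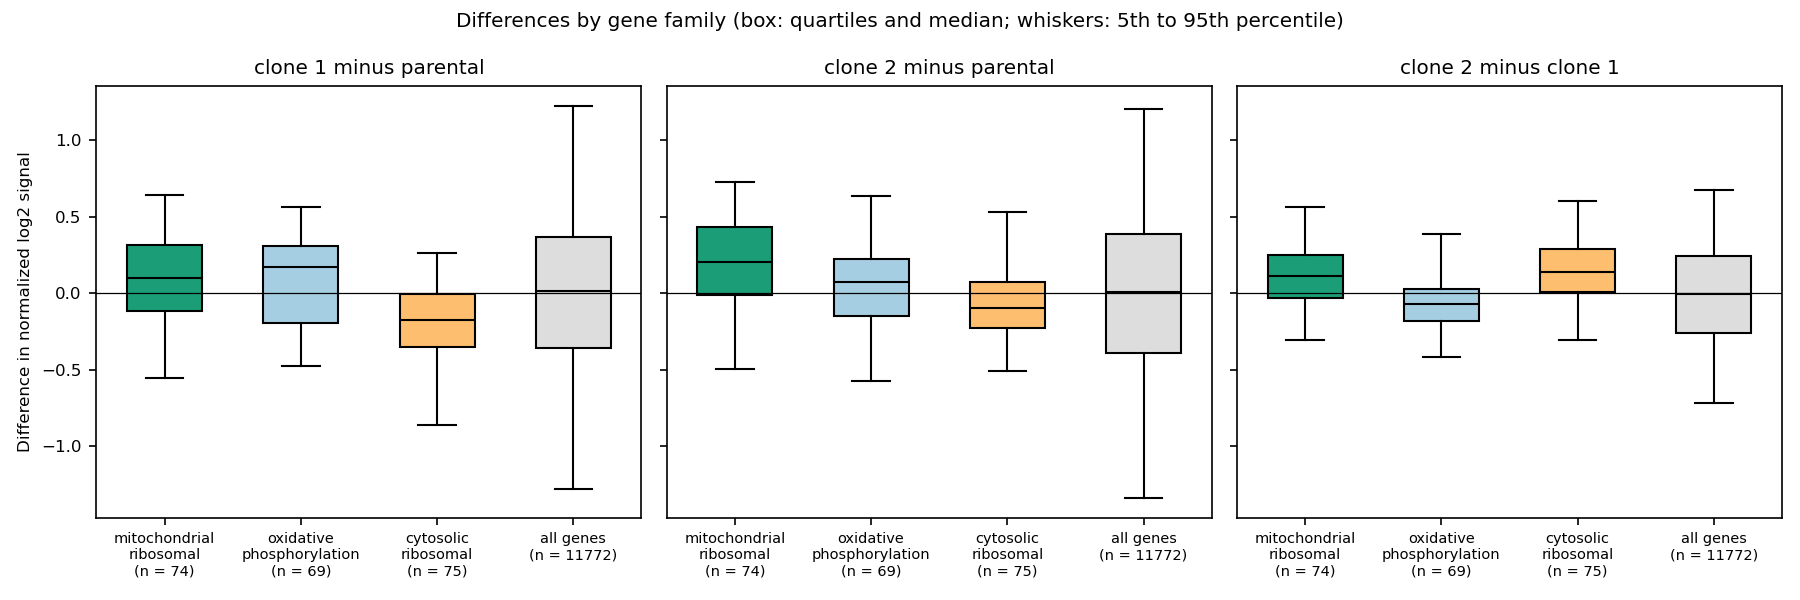
Log2 differences (vertical axis) of 74 mitochondrial ribosomal, 69 oxidative phosphorylation and 75 cytosolic ribosomal protein genes and of all 11772 genes, for clone 1 minus parental, clone 2 minus parental and clone 2 minus clone 1 (panels). Boxes are quartiles with the median and whiskers the 5th to 95th percentile of genes; the mitochondrial ribosomal medians are 0.098, 0.20 and 0.11, and the 3 families are all narrower than the whole.

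Among the other genes that make and serve the mitoribosome, 1 of 84 was called by limma, against 5.82% of all genes tested. The same share is the background for each list that follows. Of mitoribosomal proteins under other names, DAP3 averaged 0.16, GADD45GIP1 0.34 and CHCHD1 -0.05. Of 11 mitochondrial translation factors 0 were called, with a median of 0.19. The 4 largest differences were 0.68 for the elongation factor TSFM, 0.44 for GFM1, and -0.82 and -0.42 for the initiation factors MTIF2 and MTIF3. The elongation factor TUFM averaged 0.16. MTIF2 had 10.07 and 9.92 in the clones, against 10.81 in the parental line. Of 23 assembly factors 0 were called (median 0.12); the GTPase MTG1 averaged 1.05, METTL17 0.99, the 12S rRNA chaperone ERAL1 0.68 and NOA1 -0.71. MTG1 had 6.53 and 6.54 in the clones, against 5.49 in the parental line, near the background.

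Of 19 mitochondrial aminoacyl-tRNA synthetases and amidotransferase subunits, which charge mitochondrial tRNAs, 0 were called (median 0.17). MARS2, for methionine, had 9.18 and 9.06 in the clones, against 7.96 in the parental line, a mean difference of 1.16 (limma adjusted p = 0.0844). A dimmer probe of MARS2 gave 0.63 in clone 1 and 0.27 in clone 2. VARS2, for valine, averaged -0.85, HARS2 -0.44 and CARS2 0.47. Of 19 genes that keep, transcribe and process the mitochondrial genome 0 were called, with a median of 0.34. The RNA polymerase POLRMT had 9.65 and 9.73 in the clones, against 8.73 in the parental line, a mean difference of 0.96 (limma adjusted p = 0.122). The DNA polymerase POLG averaged 0.87, the RNA-binding protein GRSF1 0.72 and TWNK 0.70. At an unadjusted p under 0.05 the 5 lists together held 6 higher and 2 lower genes, against the 10.1% and 10.6% of all genes.

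Of 9 regulators of mitochondrial gene expression 1 rose (2.70% of all genes did), PPARGC1A, the gene of the coactivator PGC-1α. Its log2 signal was 8.67 in clone 1 and 8.48 in clone 2, against 4.77 in the parental line, where the probe was below background. With the background correction used here, the mean of the clones was at least 8.90-fold above the dimmest signal above background on the parental array, clone 1 at least 9.52-fold and clone 2 at least 8.32-fold (limma adjusted p = 0.00528). The size depends on that correction: the fitted log2 difference was 3.81, against 2.93 without background correction and 2.76 with an offset of 50. It rests on 1 probe. Of the factors named above with these motifs, GABPA averaged -0.02 and GABPB1 -0.19. Other ETS-family factors were not analysed here. NRF1 exceeded background on clone 2 only, with a log2 signal of 5.68 there, so that it has no measured difference from parental. ESRRA, a nuclear receptor partner of PGC-1α, averaged -0.43, YY1 -0.50 and the related coactivator PPRC1 0.50. Whether PPARGC1A bears on the mitoribosomal signals was not tested.

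**Figure D5:**
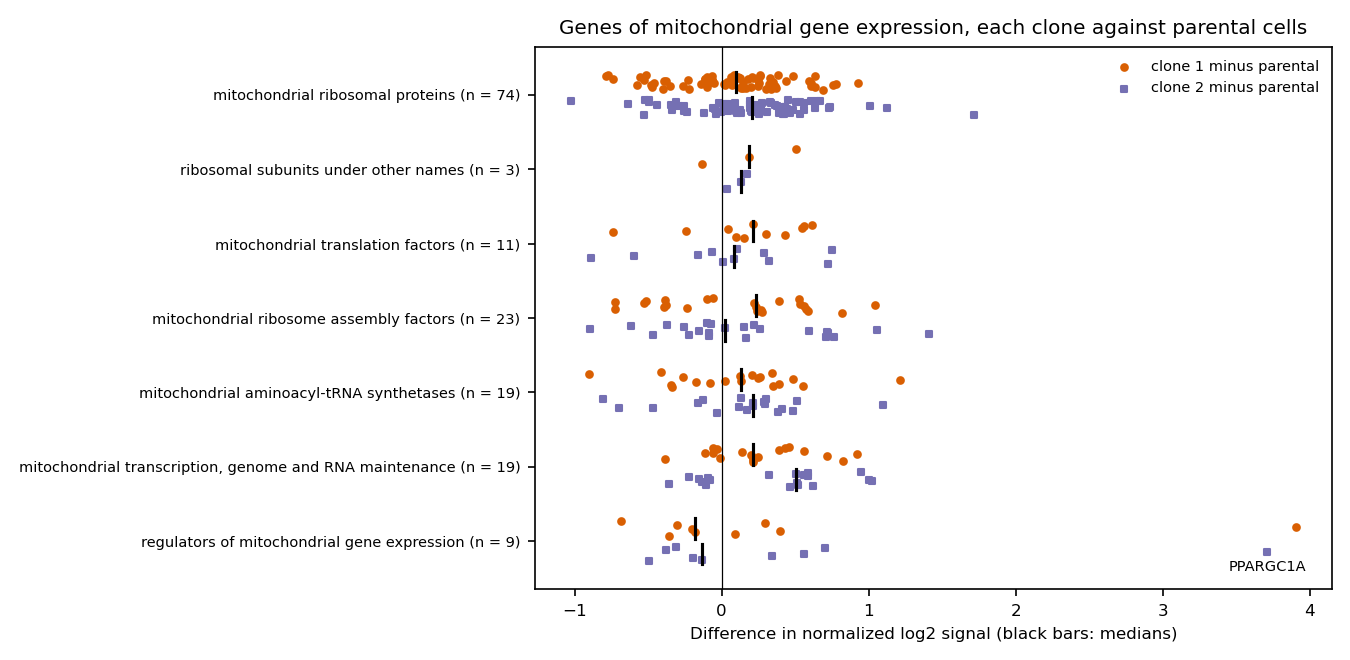
Log2 difference of each clone from the parental line (horizontal axis) for the 74 members and for the lists of other genes of mitochondrial gene expression; black bars are medians, circles clone 1 and squares clone 2, with vertical scatter for legibility. PPARGC1A lies far right of all others, and its plotted differences use a parental signal below background, so that the bound of at least 8.90-fold for the mean of the clones stands in their place; all other lists straddle 0.

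The samples were checked against their labels by markers. Of 9 epithelial and lung adenocarcinoma markers 7 were tested, and 5 fell in the clones (3.12% of all genes did): EPCAM, CDH1, KRT8, NAPSA and NKX2-1. KRT19 and EGFR were lower in both clones and not called. EGFR stood at -0.72 in clone 1 and -4.45 in clone 2. KRT18 and SFTPB were below background on all arrays, the parental one included. EPCAM had 10.64 and 8.99 in the clones, against 14.05 in the parental line, and NKX2-1 was below background in both clones. Of 9 leukocyte, endothelial and fibroblast markers 7 were below background on all arrays, CD14 fell (5.57 and 5.80 in the clones, 7.24 in the parental line), and PECAM1 averaged -0.52. The fall of these epithelial signals moves with the same contrast as every value above, and its part in them was not tested. In these bulk samples fewer cells of a kind and less RNA per cell cannot be told apart. Between 33.3% and 34.4% of the 48803 probes exceeded background on each array.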

How the data were processed

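Biotin-labelled RNA of the 3 cell lines was read on Illumina HumanHT-12 v3 arrays, per the labels' protocols. The authors deposited a non-normalized table and a processed table, both linear intensity values for 48803 probes with no detection p-value; no source used here names the software behind them. Medians of the processed columns were 59.7, 59.7 and 59.6 for clone 1, clone 2 and parental, a common scale without log or centring.

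From the non-normalized intensity, background was corrected with normexp (limma 3.58.1, R 4.3.3, offset 16), then log2 and quantile normalization. A probe exceeded background at a one-sided p under 0.01 against the array's own dim probes. Platform annotation named 28098 probes with 1 gene, 13 with several and 20692 with none listed; 28059 symbols were updated through RefSeq (GRCh38.p14). The 15586 probes above background on at least 1 array gave 11772 genes, each by its brightest probe. Resistant clones (n = 2) were compared with parental (n = 1) by limma (lmFit, eBayes; residual df 1, prior df 4.08), Benjamini-Hochberg over all genes, threshold 0.05, after a test on simulated data. The simulated shifts were larger than any member's difference. That test therefore does not show how differences of the members' size are recovered. The labels do not say whether samples came from separate cultures, and the number of arrays limits precision. A bound uses, per array, the lowest signal above background.

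Members, lists and tests were chosen with earlier results of these data known. Named were the 10 highest and 10 lowest members, the 4 with the widest gap between the clones either way, the 4 brightest and 4 dimmest, those of the listed sites, the S18 paralogues and, per list, called genes and up to 4 of the largest differences. Other members and neighbours named were chosen after their values were seen. Alternatives were the processed values, offset 50, no background correction, median scaling, detection at 0.05, background on all arrays, no filter, the mean of probes, and each clone left out.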

Additional observations from a re-analysis of the deposited data

How the results depend on the processing

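No member was called under any of the 8 alternatives, in which the members at an unadjusted p under 0.05 numbered 4 to 9 and the smallest adjusted p ran from 0.088 to 0.215, while calls over all genes ran from 277 (only genes above background on all arrays) to 858 (no filter), against 685. Median scaling put the clone 1 median at -0.00085, the clone 2 median at 0.11, the large subunit at 0.058 and the small subunit at 0.0097. Among the members chosen by rank, clone gap, brightness, site or paralogy, it also turned MRPL58 (-0.024), MRPL37 (-0.027), MRPL40 (-0.099) and MRPS12 (-0.0057). Within the same choice the mean of probes turned MRPL57 to -0.14. The other 23 members were not followed singly. Under median scaling the all-gene median also moved down, by -0.091. Both clones were above parental in 31 to 42 members and below in 15 to 23 over the alternatives, and clone 2 was above clone 1 in 70.3% to 74.3%. Leaving out clone 1 gave 3 members at least 2-fold higher and 1 lower, and leaving out clone 2 gave 0 and 0; the range was 0 to 3 higher and 0 to 1 lower, since 1 clone then decides. With 1 clone there is no residual spread and no test. For PPARGC1A the fitted difference ran from 2.76 to 3.90 and the adjusted p from 0.0013 to 0.0105. No paired analysis was possible because the parental line has 1 array and the groups share 1 replicate number. The dimmest member signal, 6.14 for MRPS34 on the parental array, lay near the lowest signal above background there (5.42).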
